A study of Mus musculus with 9 samples.

Results

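The insulin-like growth factor (IGF) axis was followed through 9 named genes in mouse cortex after a stab wound. They are Igf1, which encodes a ligand, Igf1r and Igf2r, which encode the receptors of the IGF family, and Igfbp2, Igfbp3, Igfbp4, Igfbp5, Igfbp6 and Igfbp7, which encode secreted binding proteins. The genes were taken by symbol, 9 of the 56748 genes in the count table, and all 9 were among the 18093 genes with enough counts to be tested.

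RNA was sequenced from 9 libraries, 3 from each group. Reactive culture was made from stab-wounded cortex, whose cells were kept in DMEM/F12 with B27 and 10% fetal bovine serum, and the whole culture was collected without a sort. Injured cortex was the core of the lesion, dissociated and passed through flow cytometry that left out debris, dead cells and neurons (the CD171+ and ACSA-2- cells). Uninjured cortex came from animals with no wound and went through the same dissociation and sort. All animals were wild-type C57BL/6J mice of 2 to 3 months, and the wound was a lancet grid 0.5 mm deep. The sample labels put the dissection 1 day after injury and the culture at 6 days, whereas the series' design text gives 3 days for injured cortex and 8 days for the culture, so the times are left as uncertain. Reactive culture differs from both cortex groups in culture, in serum, in the lack of a sort and in time, and these cannot be told apart in any comparison with it.

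IGF1 is a secreted peptide hormone that signals through the receptor tyrosine kinase IGF1R to the PI3K-AKT and MAP kinase pathways and promotes growth and survival. IGF2R, the cation-independent mannose 6-phosphate receptor, carries lysosomal enzymes and takes up IGF2 for degradation. IGF binding proteins hold IGFs in the extracellular fluid and can block or prolong their action. IGFBP7 is a low-affinity relative of the others and is also found in the vascular basement membrane. In the brain, IGF1 is made by neurons, glia and, after injury, by microglia and macrophages.

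The promoters of 3 genes are shown because of their place in the results that follow: Igf1 and Igfbp7 had the largest changes of the 9 genes in reactive culture against injured cortex, and Igfbp6 had the largest in injured against uninjured cortex. Each sequence is the 250 bases before an annotated transcript start, from RefSeq on GRCm38.p6, written 5′ to 3′ on the strand of the gene. Igf1 lies at chr10:87860861-87861110 on the plus strand, Igfbp6 at chr15:102143936-102144185 on the plus strand and Igfbp7 at chr5:77408046-77408295 on the minus strand. Capitals mark matches, on either strand, to the letters searched.
Igf1: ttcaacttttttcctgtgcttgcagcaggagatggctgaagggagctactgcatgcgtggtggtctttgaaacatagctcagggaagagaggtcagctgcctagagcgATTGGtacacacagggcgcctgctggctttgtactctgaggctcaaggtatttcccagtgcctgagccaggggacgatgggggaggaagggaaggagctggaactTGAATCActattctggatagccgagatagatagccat
Igfbp6: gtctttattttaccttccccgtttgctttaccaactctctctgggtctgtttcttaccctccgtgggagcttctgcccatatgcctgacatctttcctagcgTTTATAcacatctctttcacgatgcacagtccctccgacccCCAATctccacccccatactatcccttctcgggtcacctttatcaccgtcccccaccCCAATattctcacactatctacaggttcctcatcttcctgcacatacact
Igfbp7: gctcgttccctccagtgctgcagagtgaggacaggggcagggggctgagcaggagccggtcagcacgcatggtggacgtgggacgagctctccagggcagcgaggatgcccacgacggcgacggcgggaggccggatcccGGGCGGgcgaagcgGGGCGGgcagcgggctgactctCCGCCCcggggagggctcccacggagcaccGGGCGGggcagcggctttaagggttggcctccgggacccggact
Among 32851 mouse promoters cut to the same window, 12.4% hold the TATA box searched as TATAAA, 32.7% the GC box searched as GGGCGG and 33.8% the CCAAT box. The AP-1 site, searched as TGANTCA, is in 6.75% of them, the STAT site, searched as TTCNNNGAA, in 7.02% and the TEAD site, searched as GGAATG, in 12.6%. None of the matches printed overlaps another. The Igf1 window holds 1 CCAAT box on the reverse strand and 1 AP-1 match, the Igfbp6 window 2 CCAAT boxes and 1 TATA match on the reverse strand, and the Igfbp7 window 4 GC boxes. Igfbp7 also has the most GC-rich of the 3 windows, 74% G or C against 52.8% for Igf1, 49.6% for Igfbp6 and a median of 52.4% over all promoters. A match describes these letters only and says nothing of whether a factor binds there.

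Library totals were 16667883 to 24302770 counts in reactive culture, 20389561 to 21135163 in injured cortex and 12205049 to 18577561 in uninjured cortex. The correlation of log2 CPM (counts scaled to a common library size) between libraries was 0.939 to 0.984 within groups and 0.738 to 0.934 between groups. Uninjured replicates 2 and 3 stood apart from all others in 1767 olfactory and vomeronasal receptor genes, which cortex cells do not normally use. These genes held 175 and 146 CPM there, against 14.3 to 44 CPM in the other 7 libraries. The same replicates had more mural cell markers than uninjured replicate 1, 1471.6 and 1507 CPM against 804.5 CPM, and less Igfbp2 and Igfbp3, as given below. Cell type markers moved with the groups. Summed microglia markers were 1523 to 2386 CPM in reactive culture, 5700 to 15740 CPM in injured cortex and 9485 to 14934 CPM in uninjured cortex, and all 8 of them were lower in culture than in either cortex group. The macrophage list summed to 16322 to 23046 CPM in culture, of which Gpnmb alone made up 97.5%, against 243.9 to 1552 CPM in injured and 33.3 to 66.7 CPM in uninjured cortex. Its members did not move together. In culture against injured cortex 3 of 8 were called higher (Gpnmb, Ms4a7 and Mrc1) and 4 lower (Ccr2, Ly6c2, Arg1 and Chil3). Against uninjured cortex 4 were higher and 3 lower in culture, and 6 were higher in injured than in uninjured cortex. Smooth muscle markers, 91% of them Acta2, came to 3441 to 4010 CPM in culture, 42.4 to 59.1 CPM in injured and 38.6 to 177.7 CPM in uninjured cortex. Astrocyte markers were the reverse, at 91.6 to 159.6 CPM in culture, 2368 to 3920 CPM in injured and 3666 to 6469 CPM in uninjured cortex. Aldoc made up 44.9% of this sum in injured and 55.7% in uninjured cortex. Between these 2 groups 0 of the 8 astrocyte markers were called lower in injured cortex and 1 higher. That gene was Gfap, with a mean of 301.2 CPM in injured and 13.9 CPM in uninjured cortex. Neuron markers summed to between 9.27 and 27.6 CPM in all 9 libraries. Of these 8 genes, 3 were called higher in culture than in uninjured cortex (Rbfox3, Slc17a7 and L1cam) and 0 lower. Against injured cortex 1 was called higher in culture (Rbfox3) and 1 lower (Snap25). In bulk RNA, a change in the number of cells of a type and a change in RNA per cell cannot be told apart, and the part of these markers in the results was not tested.

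**Figure D1:**
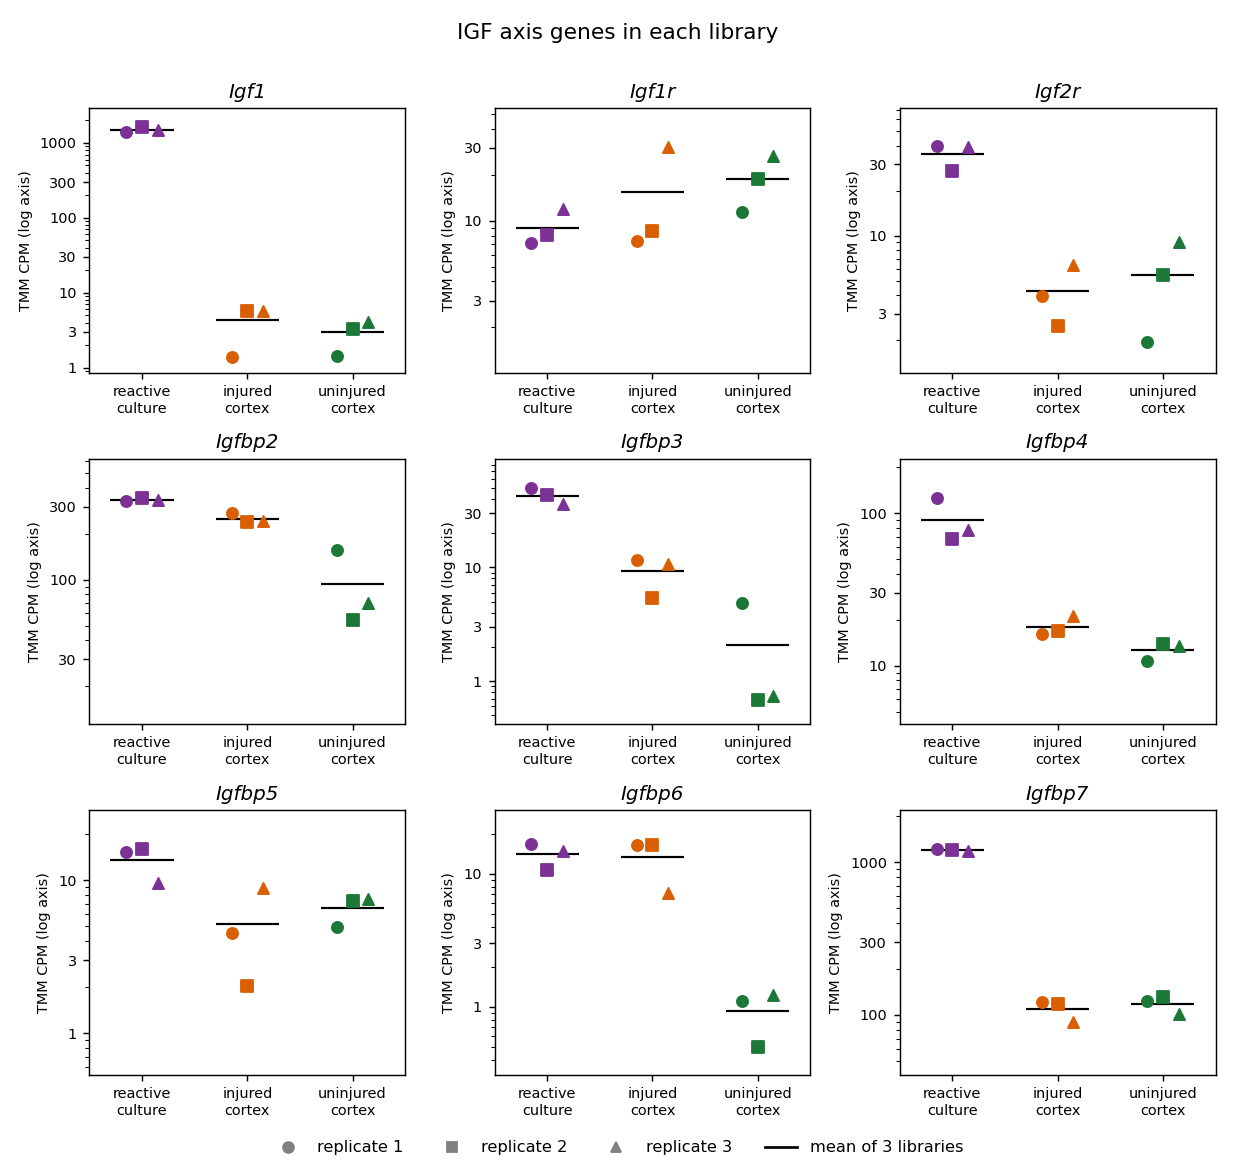
Level of each IGF axis gene in each library, in CPM scaled with TMM factors on a log axis, with 1 symbol per replicate and a line at the mean of 3 libraries. Igf1 and Igfbp7 stand apart in reactive culture, Igfbp6 is lowest in uninjured cortex, and Igf1r overlaps in all groups.

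After injury, Igfbp2, Igfbp3 and Igfbp6 rose in injured cortex against uninjured cortex. The other 3 binding protein genes, Igf1 and both receptor genes did not pass the test. These 3 of 9 genes compare with 11.9% of all 18093 tested genes called in either direction and 8.99% called higher, by edgeR's quasi-likelihood test at a Benjamini-Hochberg adjusted p under 0.05. None of the 9 was called lower, where 2.87% of all genes were. The median log2 fold change was 0.51 over the 9 genes and 0 over all genes. For 4 of the 9 the groups did not overlap, which held for 28.6% of all genes. The calls of Igfbp2 and Igfbp3 were each lost when any 1 of several libraries was left out, while Igfbp6 was called whichever library was left out.

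Reactive culture held far more Igf1 and Igfbp7 than injured cortex, and Igf2r, Igfbp3, Igfbp4 and Igfbp5 were higher as well. These are 6 of 9 genes called, all higher, where 50.1% of all genes were called in this comparison, 20.0% of them higher and 30.1% lower as shares of all tested. The median log2 fold change was 2.21 over the 9 genes against -0.19 over all genes. In CPM the groups did not overlap for 7 of 9 genes, against 59.7% of all genes, and for Igfbp2 this depended on the scaling. With about as many genes called as not over the whole table, the count of calls alone says little about the IGF axis, and its sizes and directions are given gene by gene.

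Against uninjured cortex, reactive culture was higher for 7 of 9 genes: those same 6 without Igfbp5, and also Igfbp2 and Igfbp6. Over all genes 60.5% were called, 27.5% higher and 33.1% lower. The median log2 fold change was 2.83 over the 9 genes and -0.17 over all genes, and the groups did not overlap for 8 of 9 genes against 69.2% of all genes. Both comparisons with reactive culture share its 3 libraries, and both comparisons with uninjured cortex share those 3, so that they are not independent of each other.

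**Figure D2:**
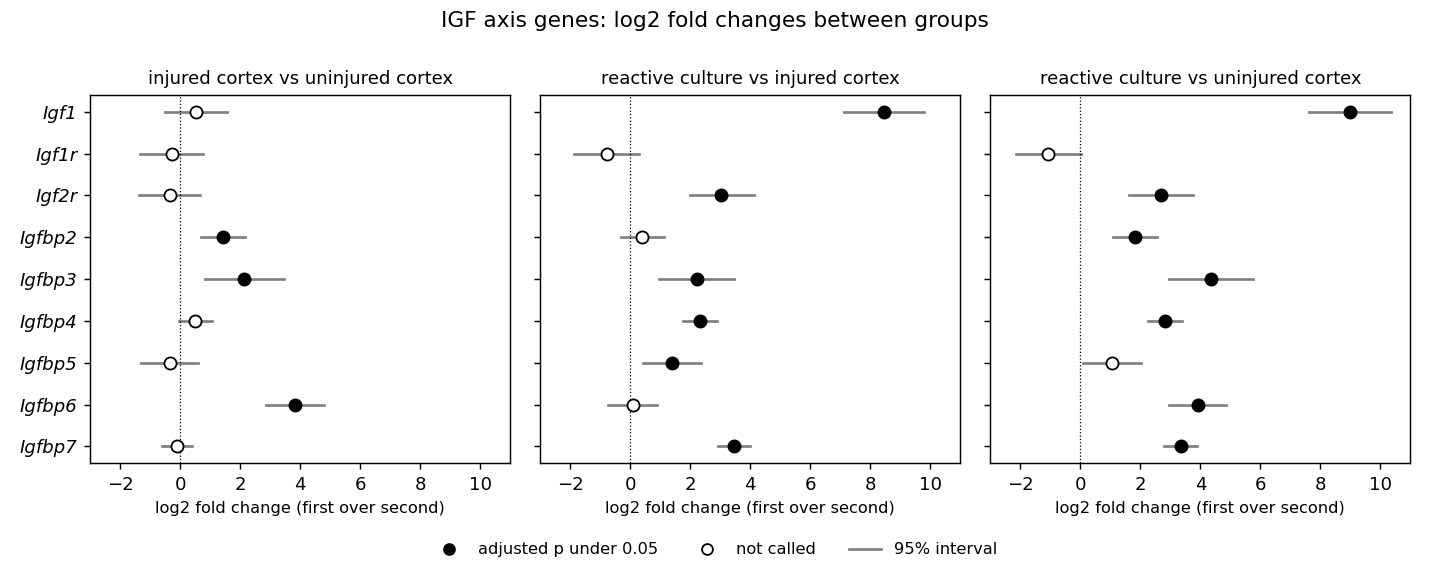
Log2 fold change of each IGF axis gene in the 3 comparisons, with 95% confidence intervals from edgeR's quasi-likelihood fit; filled points have an adjusted p under 0.05. In injured against uninjured cortex 3 genes are filled, Igfbp2, Igfbp3 and Igfbp6, and the Igf1 points of the culture comparisons lie at 8.45 and 8.98.

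Igf1 had 1399, 1610 and 1467 CPM in reactive culture, against 1.37, 5.76 and 5.65 CPM in injured cortex and 1.44, 3.33 and 4.09 CPM in uninjured cortex. Every culture library was thus far above every cortex library, while the cortex groups overlapped. Igf1 was 349-fold higher in culture than in injured cortex (8.45 ± 0.61 SE on the log2 scale, adjusted p = 6.3e-07) and 505-fold higher than in uninjured cortex (8.98 ± 0.63, adjusted p = 3.04e-07), the largest change among the 9 genes in both comparisons. Injured and uninjured cortex differed by 0.53 ± 0.48 on the log2 scale (95% confidence interval -0.51 to 1.58, adjusted p = 0.525), and with 3 libraries a group a rise within that interval could not be seen. In the same 3 culture libraries Gpnmb, of the macrophage list, was far above the cortex. Ms4a7 and Mrc1 of that list were also called higher than in injured cortex, and 4 of its 8 genes were called lower. All 8 microglia markers were lower. The part of these cells in the Igf1 level was not tested.

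Igf1os, a gene annotated antisense to Igf1, had 17, 31 and 16 counts in culture, 0, 2 and 0 in injured cortex and 0, 5 and 2 in uninjured cortex. It was high where Igf1 was high, but the strand setting of the counting is not given in the sources used here, so that reads of the 2 genes may not be separated. The other ligand, Igf2, was near the floor of detection, with 0 counts in all 3 culture libraries, 1, 0 and 0 in injured cortex and 1, 1 and 0 in uninjured cortex, and it was not tested.

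Igf1r, the gene of the signalling receptor, was called in none of the 3 comparisons. It had 7.12, 8.05 and 11.9 CPM in reactive culture, 7.41, 8.53 and 30.3 CPM in injured cortex and 11.4, 18.7 and 26.4 CPM in uninjured cortex. The groups overlapped in every pairing, and injured replicate 3 was the highest of all 9 libraries. That library stood at an end of its group for several marker lists. Its summed microglia (5700 CPM), macrophage (243.9 CPM), oligodendrocyte (13159 CPM) and cell cycle markers (133.3 CPM) were the lowest of the group. Its astrocyte (3920 CPM), oligodendrocyte precursor (762.7 CPM), endothelial (453.3 CPM) and fibroblast markers (226.2 CPM) were the highest. The part of these markers in the Igf1r level was not tested. Injured against uninjured cortex gave -0.28 ± 0.49 (95% confidence interval -1.35 to 0.78, adjusted p = 0.767), and without injured replicate 3 it gave -1.26 with an adjusted p of 0.0237. Reactive culture against injured cortex gave -0.78 ± 0.50 (adjusted p = 0.208), which turned to 0.18 without that same library. Against uninjured cortex, culture was lower by a log2 fold change of -1.06 ± 0.50 that did not pass (95% confidence interval -2.15 to 0.03, adjusted p = 0.0839) and that passed in several of the alternative fits, among them a fit of those 2 groups alone (adjusted p = 0.00726).

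Igf2r behaved differently from Igf1r in the culture, with 39.6, 27.3 and 39.3 CPM there, against 3.96, 2.46 and 6.33 CPM in injured cortex and 1.93, 5.44 and 9.09 CPM in uninjured cortex. All culture libraries were above all cortex libraries, and the cortex groups overlapped. It was higher in culture than in injured cortex by 3.04 ± 0.49 (adjusted p = 0.000337) and than in uninjured cortex by 2.69 ± 0.48 (adjusted p = 0.000515) on the log2 scale. Injured against uninjured cortex gave -0.35 ± 0.47 (95% confidence interval -1.38 to 0.67, adjusted p = 0.685).

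Igfbp6, whose product prefers IGF2 over IGF1, had the largest change of the 9 genes after injury. It had 16.4, 16.3 and 7.15 CPM in injured cortex, against 1.1, 0.495 and 1.22 CPM in uninjured cortex. The lowest injured library was above the highest uninjured one by a wide margin. The difference was 14.3-fold (log2 fold change 3.83 ± 0.44, adjusted p = 0.000199), and leaving out any single library kept it between 3.49 and 4.12 with an adjusted p of at most 0.00203. Reactive culture, at 16.6, 10.6 and 14.7 CPM, lay within or next to the range of injured cortex (0.08 ± 0.37, 95% confidence interval -0.74 to 0.89, adjusted p = 0.879) and 15-fold above uninjured cortex (3.91 ± 0.44, adjusted p = 1.45e-05). Cell cycle markers also rose after injury, to 133.3 to 216.4 CPM in injured cortex against 3.76 to 6.16 CPM in uninjured cortex, with all 6 called higher. In culture they stood at 525.2 to 617.1 CPM, with 5 of 6 called higher than in injured cortex, where Igfbp6 was not called. Fibroblast markers were at 111.1 to 226.2 CPM in injured and 47.6 to 66.8 CPM in uninjured cortex. Of these 8, 2 were called higher, Fn1 and Dcn, and 0 lower. Fn1 made up 42.4% of the injured sum. The collagen genes, Lum, Slc6a13 and Pdgfra, a marker shared with oligodendrocyte precursors, were not called. The part of these markers in the Igfbp6 level was not tested.

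Igfbp2, one of the main binding proteins of the central nervous system, had 271, 239.6 and 243 CPM in injured cortex, against 156.4, 54.3 and 70.7 CPM in uninjured cortex. The groups did not overlap, but uninjured replicate 1 stood well above the other two. Igfbp2 was higher by 1.42 ± 0.33 on the log2 scale (adjusted p = 0.016). The call did not hold without injured replicate 1 (adjusted p = 0.0707), uninjured replicate 2 (0.0688) or uninjured replicate 3 (0.0766), and with only uninjured replicate 1 kept the difference fell to 0.67 (adjusted p = 0.394). In reactive culture Igfbp2 was at 326, 341 and 335 CPM, above every cortex library on this scale. The scaling factors were 0.716 to 0.767 in culture and 0.938 to 1.393 in cortex. Divided by gene length and scaled to a fixed total per library (TPM), Igfbp2 had 364.2 and 495.5 in injured replicates 1 and 3. Those values lay above the 317.8 to 334.6 TPM of culture. Culture was a further 0.41 ± 0.33 over injured cortex on the log2 scale, which did not pass (95% confidence interval -0.30 to 1.12, adjusted p = 0.312), and 1.83 ± 0.34 over uninjured cortex (adjusted p = 0.000602).

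Igfbp3, the main IGF carrier of the circulation, stepped up through the groups: 49.5, 42.9 and 35.8 CPM in reactive culture, 11.5, 5.34 and 10.8 CPM in injured cortex and 4.86, 0.675 and 0.732 CPM in uninjured cortex. No library overlapped with another group, although uninjured replicate 1 came close to the lowest injured library. Injured cortex was higher than uninjured cortex by 2.14 ± 0.60 on the log2 scale (adjusted p = 0.038). The adjusted p was above 0.05 without any 1 culture library (0.0599 to 0.0654), without injured replicate 1 (0.123) and without uninjured replicate 2 (0.132) or 3 (0.125), and the difference was 0.91 with only uninjured replicate 1 kept (adjusted p = 0.425). Without uninjured replicate 1 it was 3.71. Uninjured replicate 1 was the highest of its group for both Igfbp2 and Igfbp3. Its endothelial markers were at 514.1 CPM, against 191.3 CPM in replicate 2 and 447.8 CPM in replicate 3, where both genes were low. Its astrocyte markers were at 6469 CPM, against 3665.5 and 5198 CPM. The part of these markers in the 2 genes was not tested. For Igfbp3, culture exceeded injured cortex by 2.21 ± 0.57 (adjusted p = 0.00695) and uninjured cortex by 4.36 ± 0.64 (adjusted p = 0.000116).

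**Figure D3:**
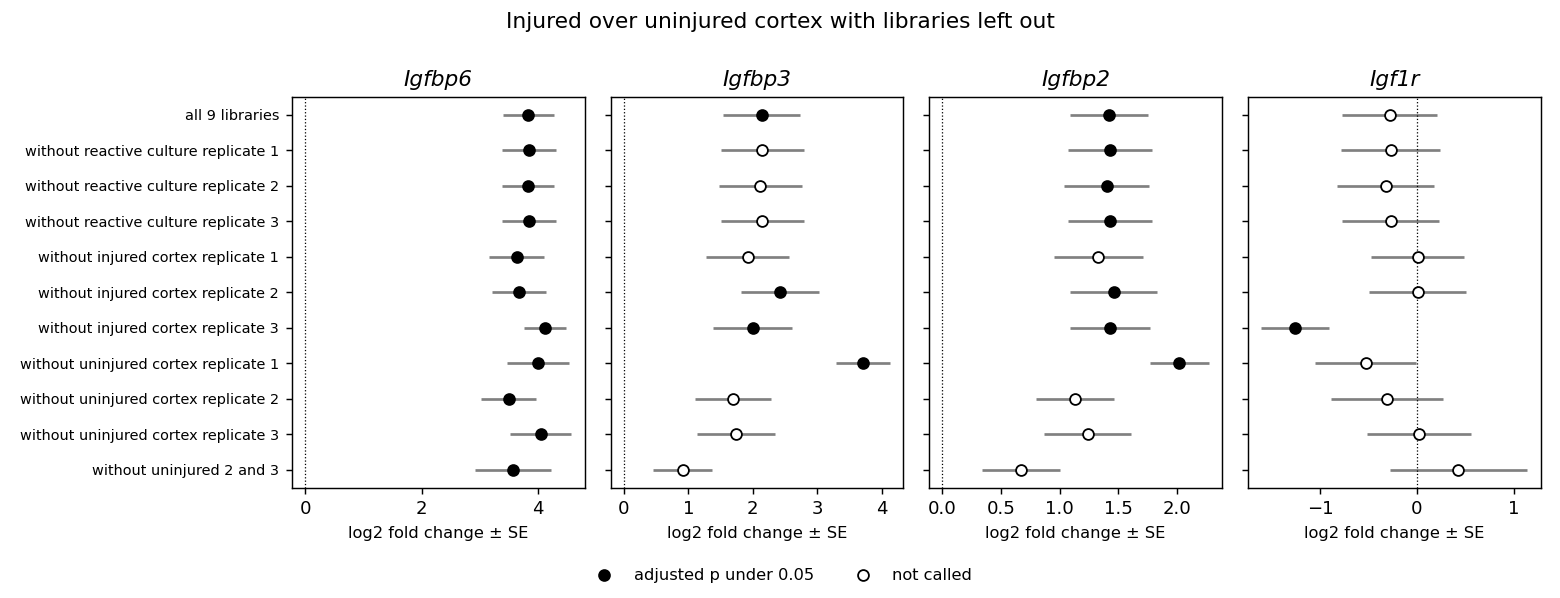
Log2 fold change in injured against uninjured cortex for Igfbp6, Igfbp3, Igfbp2 and Igf1r, with all 9 libraries, with each library left out in turn and with uninjured replicates 2 and 3 both left out; bars are SE and filled points have an adjusted p under 0.05. Igfbp6 stays between 3.49 and 4.12 with any 1 library left out, while Igfbp2 and Igfbp3 drop to 0.67 and 0.91 with only uninjured replicate 1 kept.

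Igfbp7 showed the second largest change of reactive culture against injured cortex, with 1218, 1212 and 1186 CPM in culture, against 122.2, 117.7 and 90.4 CPM in injured cortex and 123.8, 131.6 and 100.9 CPM in uninjured cortex. The culture libraries lay within a few percent of each other and about an order of magnitude above the cortex, where the groups overlapped. The difference was 10.9-fold against injured cortex (3.45 ± 0.25 on the log2 scale, adjusted p = 6.56e-07) and 10.1-fold against uninjured cortex (3.34 ± 0.25, adjusted p = 5.06e-07). Injured and uninjured cortex differed by -0.11 ± 0.23 (95% confidence interval -0.61 to 0.39, adjusted p = 0.81). Markers of fibroblasts summed to 395.9 to 837.4 CPM in culture, 111.1 to 226.2 CPM in injured and 47.6 to 66.8 CPM in uninjured cortex. Of these 8 genes, 6 were called higher in culture than in injured cortex and 1 lower. The lower one was Pdgfra, shared with oligodendrocyte precursors (-4.55 ± 1.05, adjusted p = 0.00367). For smooth muscle, 5 of 5 markers were called higher in culture than in injured cortex. Mural cell markers as a sum were lower in culture, at 131.3 to 215.9 CPM against 493.4 to 520.7 CPM in injured and 804.5 to 1507 CPM in uninjured cortex, and so were endothelial markers, at 91.6 to 133.6 CPM against 270.3 to 453.3 CPM in injured and 191.3 to 514.1 CPM in uninjured cortex. Against injured cortex, 5 of 8 mural markers were called lower and 2 higher, Pdgfrb (1.47 ± 0.36, adjusted p = 0.00485) and Anpep (4.62 ± 0.50, adjusted p = 1.64e-05), and Vtn made up 63.5% of the mural sum in injured cortex. Of 8 endothelial markers, 3 were called lower and 0 higher. Igfbp7 shares 85 exon bases with Polr2b on the opposite strand, and its counts could include some of that gene's reads.

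Igfbp4 had 125, 67.3 and 77.9 CPM in reactive culture, 16, 16.8 and 21.3 CPM in injured cortex and 10.8, 13.9 and 13.4 CPM in uninjured cortex. No group overlapped with another. Culture was higher by 2.32 ± 0.26 than injured cortex (adjusted p = 2e-05) and by 2.83 ± 0.26 than uninjured cortex (adjusted p = 2.97e-06), whereas injured against uninjured cortex, at 0.51 ± 0.25, did not pass (95% confidence interval -0.04 to 1.06, adjusted p = 0.222). IGFBP4, mostly an inhibitor of IGF action, is the best known substrate of the protease PAPP-A.

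Igfbp5, whose product binds to extracellular matrix, had 15.4, 16 and 9.55 CPM in culture, 4.53, 2.04 and 8.88 CPM in injured cortex and 4.97, 7.29 and 7.56 CPM in uninjured cortex. Culture lay above both cortex groups, though only just above injured replicate 3, and the cortex groups overlapped. The difference from injured cortex was 1.39 ± 0.45 (adjusted p = 0.0211), which did not hold without culture replicate 1 (adjusted p = 0.0626), culture replicate 2 (0.0642) or injured replicate 1 (0.0551). Against uninjured cortex it was 1.05 ± 0.44, with a 95% confidence interval of 0.08 to 2.01 and an adjusted p of 0.0576. Injured against uninjured cortex gave -0.35 ± 0.44 (95% confidence interval -1.31 to 0.61, adjusted p = 0.669).

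Levels were compared between genes only after division by gene length, as TPM, which scales counts over the exon length of each gene in GENCODE M21 to a fixed total per library. In reactive culture Igfbp7 was highest at 1814 ± 90.5 TPM, followed by Igfbp2 at 328.8 ± 9.56 TPM and Igf1 at 273.5 ± 6.25 TPM (SD, n = 3), and the ranges of these 3 genes did not overlap. Igfbp4 (26.2 to 53.5 TPM), Igfbp3 (21.1 to 29.9 TPM) and Igfbp6 (16.5 to 28.3 TPM) came next with overlapping ranges, and Igf1r was lowest at 0.802 to 1.31 TPM. Injured cortex had Igfbp2 on top at 297.6 to 495.5 TPM, then Igfbp7 at 223.3 to 281.3 TPM and Igfbp6 at 24.2 to 36.6 TPM, with Igf1 at 0.343 to 2.15 TPM among the lowest. In uninjured cortex Igfbp7 led at 280.1 to 342.8 TPM, above Igfbp2 at 92.6 to 254.4 TPM, and Igfbp6 was at 1.4 to 3.68 TPM. The most abundant binding protein transcript per length was therefore Igfbp7 in culture and in uninjured cortex, and Igfbp2 in all 3 injured libraries.

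The 6 binding protein genes together came to 2357, 2114 and 2227 TPM in reactive culture, 671.7, 568.1 and 837.7 TPM in injured cortex and 579.7, 451.2 and 427.5 TPM in uninjured cortex. Culture lay above the cortex, and the cortex groups overlapped. Igfbp7 held 80.9 to 81.6% of this sum in culture, 33.6 to 39.3% in injured cortex and 53.1 to 76.0% in uninjured cortex. Igfbp2 held 14.2 to 15% in culture, 52.4 to 59.2% in injured cortex and 20.5 to 43.9% in uninjured cortex, and Igfbp6 held 0.779 to 1.2%, 2.89 to 5.93% and 0.311 to 0.861% in the same order. The shares of Igfbp2 and Igfbp6 were thus above the uninjured range in every injured library and that of Igfbp7 was below it, which is a description of 3 libraries a group; an exact permutation test of 3 against 3 cannot reach a p below 0.10 and was not run.

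**Figure D4:**
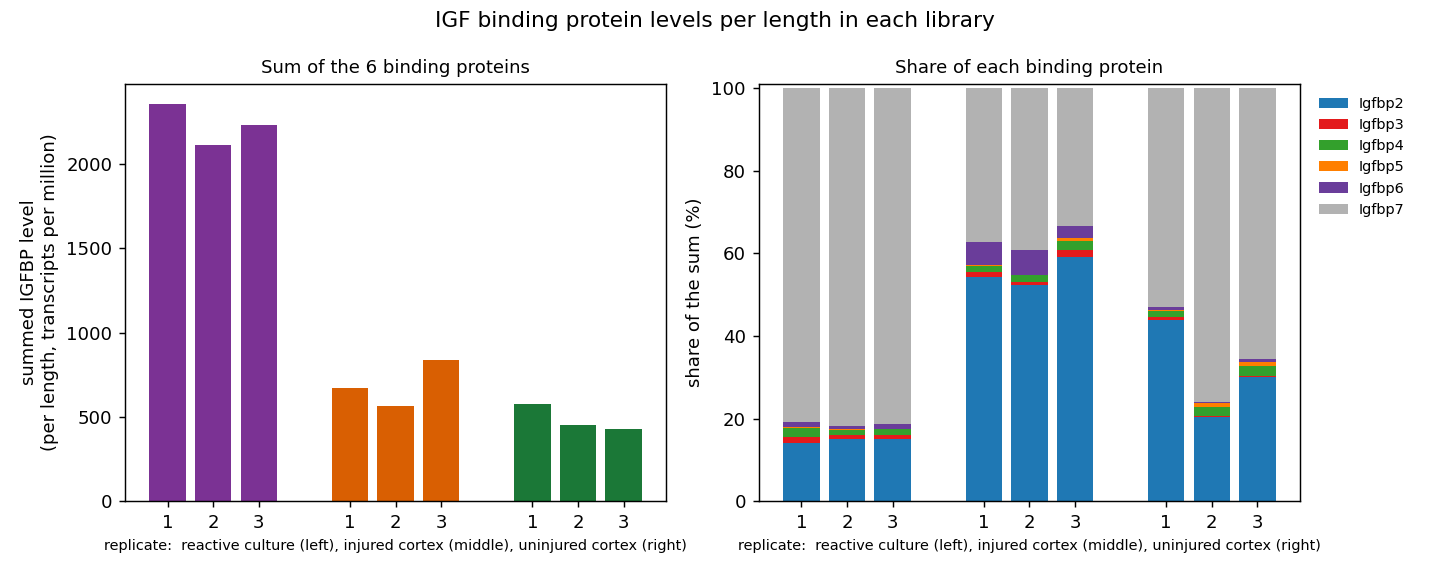
Share of each binding protein gene in the summed TPM of the 6 genes, in percent, for each of the 9 libraries. Igfbp7 takes 80.9 to 81.6% in reactive culture, and Igfbp2 takes 52.4 to 59.2% in injured cortex.

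Ligand and receptor transcripts stood in a different ratio in the culture. Igf1 divided by Igf1r, both in TPM, was 333.0, 339.1 and 209.1 in reactive culture, 0.313, 1.14 and 0.317 in injured cortex and 0.214, 0.302 and 0.263 in uninjured cortex. The receptor transcript was above the ligand transcript in 5 of the 6 cortex libraries and far below it in all 3 culture libraries. Igf1 equalled 11.3 to 13.2% of the summed binding protein TPM in culture, 0.051 to 0.256% in injured cortex and 0.0752 to 0.324% in uninjured cortex.

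Among themselves, the 9 genes most alike over the 9 libraries were Igfbp4 and Igfbp7, with a root mean square difference of 0.59 between their centred log2 CPM profiles, then Igf2r and Igfbp4 (0.64) and Igf2r and Igfbp7 (0.75). All 3 pairs are high in culture and low in cortex. Among 9081 candidate genes averaging 10 CPM or more, the nearest profile to Igf1 was Crct1 (0.69), followed by Oit3 (0.69) and Cd36 (0.77). Crct1 averaged 53 CPM in culture and 0 in both cortex groups. Oit3 averaged 30.1 CPM in culture, 0.0637 CPM in injured and 0.0353 CPM in uninjured cortex. Both reached the 10 CPM cut through the culture libraries only, so their nearness says no more than high in culture and near the floor in cortex. Cd36 averaged 3680.8, 11 and 5.07 CPM in the same order. The nearest to Igfbp7 were Tgfb1i1 (0.18), Serpinb6a (0.20) and Serpinf1 (0.23), and the nearest to Igfbp4 were Nrp2 (0.19), Uhrf1bp1l (0.21) and Dnajc10 (0.21). Igfbp6 was nearest to Ckap2l (0.28) and Cenpa (0.45), which belong to the mitotic apparatus, and to AB124611 (0.46). Igfbp3 was nearest to Asns (0.63), Srxn1 (0.66) and Txnrd1 (0.67). Igfbp2 was nearest to Ctla2a (0.31), Igfbp5 to Sorbs2 (0.33), Igf2r to Ddr2 (0.27) and Igf1r to Camk2g (0.18). These distances describe 9 libraries in 3 groups, which share the same group differences.

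Of 40 further genes of the IGF pathway, 32 could be tested. In injured against uninjured cortex 3 were called higher and 1 lower, in culture against injured cortex 12 higher and 8 lower, and in culture against uninjured cortex 12 higher and 9 lower. Over all tested genes 11.9%, 50.1% and 60.5% were called in these comparisons. By direction, 8.99% of all genes were called higher and 2.87% lower in the first. The shares were 20.0% and 30.1% in the second and 27.5% and 33.1% in the third. In both culture comparisons more pathway genes were called higher than lower, and more of all genes lower than higher. Whether the list differs from all genes was not tested. The median log2 fold change of the 32 genes was -0.10, 0.38 and 0.27 in these comparisons, against 0, -0.19 and -0.17 over all genes. Of 4 tested genes for proteases and protease inhibitors, 1 was called higher and 0 lower in injured against uninjured cortex, and 3 were called higher and 1 lower in each comparison with culture, a list too short to set against the 11.9%, 50.1% and 60.5% of all genes. Adam12, a metalloprotease that in human cleaves IGFBP3 and IGFBP5, had 13, 6.84 and 8.14 CPM in culture, 2.12, 1.73 and 4.83 CPM in injured cortex and 0.442, 0 and 0.244 CPM in uninjured cortex. No group overlapped with another, and the Adam12 rise after injury was 3.70 ± 0.74 (adjusted p = 0.0067); it was also higher in culture than in injured cortex by 1.68 ± 0.59 (adjusted p = 0.032). The second of these calls did not hold without culture replicate 1 or 3 or injured replicate 1 or 2, with adjusted p-values of 0.132, 0.0591, 0.0871 and 0.0818. Htra1, a secreted serine protease with IGF binding proteins among its substrates, went the other way, at 34, 38.8 and 43.7 CPM in culture against 165.3, 220.9 and 405.2 CPM in injured and 644.7, 425.1 and 432.2 CPM in uninjured cortex. It was lower in culture by -2.76 ± 0.34 against injured cortex (adjusted p = 4.47e-05) and by -3.69 ± 0.35 against uninjured cortex (adjusted p = 3.68e-06). Stc1 and Stc2, stanniocalcins that inhibit PAPP-A, were higher in culture than in injured cortex by 2.83 ± 0.42 (adjusted p = 0.000187) and 2.10 ± 0.63 (adjusted p = 0.015), the Stc2 call being lost without culture replicate 3 (adjusted p = 0.0682).

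The insulin receptor gene Insr, closest relative of Igf1r, had 6.76, 4.89 and 6.42 CPM in culture, 21.4, 10.9 and 34.6 CPM in injured cortex and 16.2, 42.7 and 30.5 CPM in uninjured cortex. It was lower in culture than in injured cortex by -1.89 ± 0.43 (adjusted p = 0.00309) and than in uninjured cortex by -2.31 ± 0.43 (adjusted p = 0.000654), and, as for Igf1r, injured replicate 3 was the highest of its group. Of 24 genes of signal transduction inside the cell, 2 were called higher in injured than in uninjured cortex and 0 lower, 6 higher and 6 lower in culture than in injured cortex, and 7 higher and 7 lower in culture than in uninjured cortex. These counts are close to the background of 11.9%, 50.1% and 60.5% of all genes called, and the median log2 fold changes of the list were -0.02, 0.03 and 0.02. Eif4ebp1, a translational repressor controlled by mTORC1, had 177.3, 249.3 and 235.2 CPM in culture, 84, 88.8 and 37.6 CPM in injured cortex and 22.5, 20.7 and 27.6 CPM in uninjured cortex. The groups were separate, and the rise after injury was 1.57 ± 0.30 (adjusted p = 0.00547). Akt1, the kinase downstream of PI3K, rose by 0.70 ± 0.21 at the edge of the threshold (adjusted p = 0.0494) and missed it in 13 of 19 alternatives. In culture against injured cortex Akt1 was among the genes called higher, and so was the adaptor Shc1 (1.71 ± 0.24, adjusted p = 0.000117). The genes called lower included Grb14, an adaptor that inhibits the insulin receptor (-3.68 ± 0.28, adjusted p = 1.04e-06), Pik3r1, the regulatory subunit of PI3K (-2.06 ± 0.19, adjusted p = 5.35e-06), and Irs2, a docking protein of both receptors (-1.74 ± 0.19, adjusted p = 2.05e-05).

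**Figure D5:**
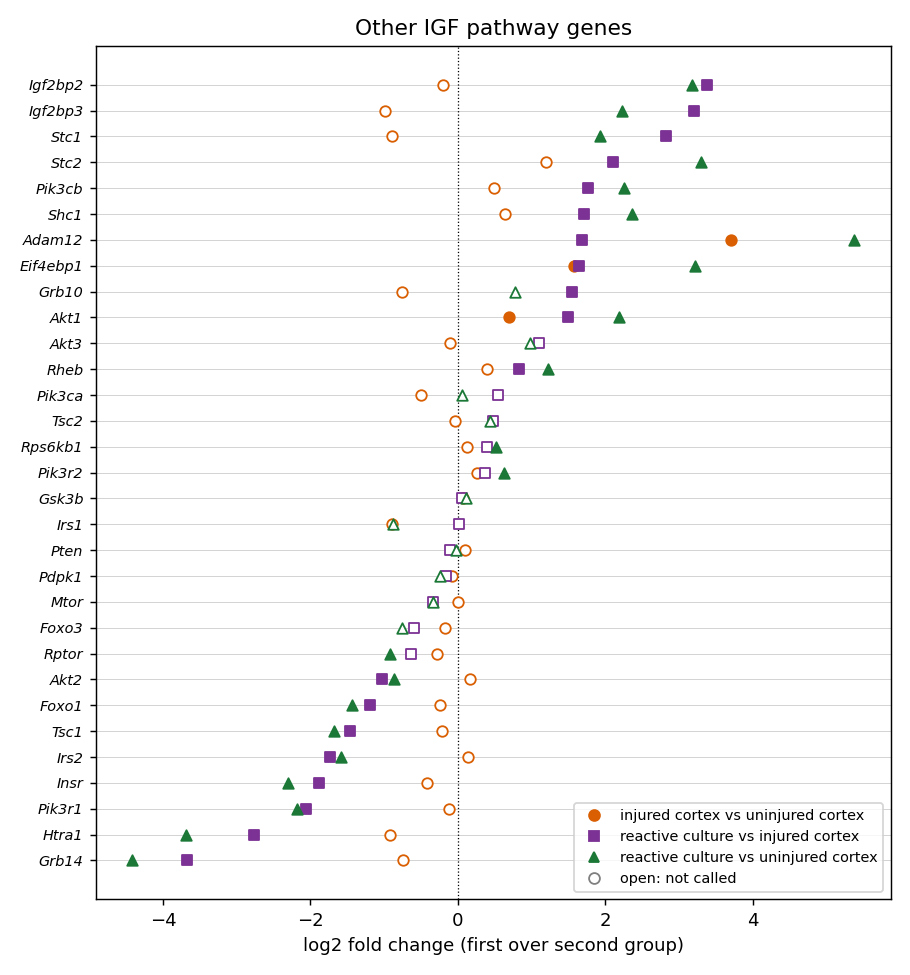
Log2 fold change of the tested genes of the wider IGF pathway in the 3 comparisons, ordered by the change in culture against injured cortex, from edgeR's quasi-likelihood fit (Igf2bp1, at 0 in injured cortex, is left out); filled points have an adjusted p under 0.05. The intracellular genes lie on both sides of 0 in the culture comparisons, with Grb14 lowest at -3.68 and -4.42.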

How the data were processed

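RNA-seq libraries from reactive culture, injured cortex and uninjured cortex of mice were compared, 3 each. The design text calls the samples biological replicates. The p-values set each group difference against the spread between replicates, estimated over all 9 libraries. The authors deposited raw read counts per gene. Per the submitters' processing notes, HISAT2 was used and the genome was GRCm39; which tool counted the reads, with what strand setting and annotation, is not given in the sources used here. The 9 genes and all gene lists were chosen with earlier results of these data known. For the tests, edgeR 4.0.16 ran under R 4.3.3: filterByExpr kept 18093 of 56748 genes, TMM factors scaled the libraries, and 1 quasi-likelihood model over all 9 libraries (6 residual degrees of freedom) gave 3 comparisons. Adjusted p-values are Benjamini-Hochberg over 18093 genes, with calls under 0.05. The SE is the log2 fold change over the square root of the F statistic, and intervals are 95%. CPM use TMM library sizes. Gene lengths are exon unions from GENCODE M21 on GRCm38, matched by identifier for 52125 genes and all 9 members; 0.0729 to 0.318% of counts had no length, and this source was chosen after seeing the data, which give none. Promoters came from RefSeq on GRCm38.p6, another build than the files', and matched all 9 genes by symbol. Genes named were the 9 members and, for each pathway list, up to 4 called genes with the smallest adjusted p in a comparison. Nearest profiles are the 3 genes with the smallest root mean square difference of centred log2 CPM (prior count 2). The script was tested on simulated counts. Alternatives were other scaling factors, filters and tools (DESeq2 1.42.0, limma 3.58.1), a fit of 2 groups, a replicate block and libraries left out.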

Additional observations from a re-analysis of the deposited data

How the results depend on the processing

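With 3 libraries a group, low genes such as Igf1 and Igfbp3 in cortex limit what can be seen. Of 171 values of the 9 genes under alternatives in each comparison, 149 kept direction and call in injured against uninjured cortex (13 lost the call, 1 gained it, 8 changed sign), 164 in culture against injured cortex (3, 1 and 3) and 158 in culture against uninjured cortex (0, 13 and 0). In injured against uninjured cortex, a fit of only these groups called 1 member, 2 other pathway genes and 1369 genes in all, against 3, 4 and 2145. With uninjured replicates 2 and 3 both left out, 1 member, 0 pathway genes and 462 genes were called, and Igf1r gave 0.43, Igf2r 1.13 and Igfbp5 0.05; culture against uninjured cortex then had 6997 calls in place of 10954. Leaving out each library gave 1 to 4 members, 2 to 8 pathway genes and 974 to 4102 genes in injured against uninjured cortex, 5 to 6 members, 17 to 22 pathway genes and 7152 to 9330 genes in culture against injured cortex, and 7 to 9 members, 19 to 23 pathway genes and 9551 to 12147 genes in culture against uninjured cortex. The log2 fold changes then ran from -1.26 to 0.02 for Igf1r, -0.78 to 0.18 for Igf2r and -1.02 to 0.03 for Igfbp5 in injured against uninjured cortex, and from -1.1 to 0.18 for Igf1r and -0.22 to 0.26 for Igfbp6 in culture against injured cortex. The count of 3 members fell to 1 without injured replicate 1, uninjured replicate 2 or uninjured replicate 3 and was 4 without injured replicate 3. Upper-quartile factors moved the median of all genes by -0.12 in injured against uninjured cortex and split its calls into 1352 higher and 761 lower, against 1626 and 519; in culture against uninjured cortex that median was -0.37 in place of -0.17. From CPM without length, Igfbp7 held 70.9, 27 and 52% of the binding protein sum in culture, injured and uninjured cortex. The cause of these shifts was not tested.

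The groups share replicate numbers, but nothing says that a number marks a shared animal or day, and same-numbered libraries' deviations from their group means correlated at -0.088 to 0.353. With a replicate block, 3, 6 and 8 members and 2203, 9096 and 11060 genes were called in the 3 comparisons.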

Other observations

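Of the 3 genes for mRNA-binding proteins named for Igf2 transcripts, Igf2bp2 and Igf2bp3 were higher in culture than in both cortex groups, and Igf2bp1 passed the test against injured cortex but not against uninjured cortex. Igf2 itself had 0 counts in the culture. Igf2bp2 had 53.5, 37.8 and 35.4 CPM in reactive culture, 3.11, 5.55 and 3.51 CPM in injured cortex and 5.47, 4.72 and 3.72 CPM in uninjured cortex. The culture libraries did not overlap with the cortex, and the difference from injured cortex was 3.38 ± 0.30 on the log2 scale (edgeR, adjusted p = 3.58e-06). Igf2bp3 had 3.25, 2.47 and 6.26 CPM in culture, 0.33, 0.105 and 0.783 CPM in injured cortex and 0.497, 1.17 and 0.854 CPM in uninjured cortex, a difference of 3.21 ± 0.66 from injured cortex (adjusted p = 0.00174). Igf2bp1 had 10, 9 and 19 counts in culture, 0 in all 3 injured libraries and 0, 16 and 15 in uninjured cortex. It was at least 19-fold higher in culture than in injured cortex, taking 3 counts in the whole group as the floor. Against uninjured cortex it did not pass the test (0.65 ± 0.97, adjusted p = 0.578). Its call as lower in injured than in uninjured cortex (adjusted p = 0.0379) rested on uninjured replicates 2 and 3, the libraries with the olfactory receptor counts, and was lost in most fits that left out 1 library (adjusted p 0.00651 to 0.107).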
